A study of Mus musculus with 25 samples.

Results

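The 10 Kruppel-like factor genes Klf2, Klf3, Klf4, Klf6, Klf7, Klf9, Klf10, Klf11, Klf12 and Klf13 were followed across 8 sorted groups of mouse group 1 innate lymphoid cells (ILCs), which are type 1 ILCs (ILC1s) and natural killer (NK) cells. They were taken by Ensembl identifier from a table of read counts for 46078 genes, so 10 of 46078 genes are described, and each of the 10 passed the filter on low counts. The study asked how ILC1s of the liver that lack the IL-7 receptor (7R- ILC1s) relate to those that have it (7R+ ILC1s) and to group 1 ILCs of other tissues and of the fetus. All mice were wild-type C57BL/6, at 8 weeks of age, or at E18.5 for the fetal liver. Cells of every group were CD3-, NK1.1+ and NKp46+, and 2000 cells were sorted per library according to the labels. The salivary gland group 1 ILCs (SG G1-ILCs, 2 libraries) were CD49a+ and CD49b+, and the ILC1s of the small intestinal lamina propria (LPL ILC1s, 4 libraries) were CD27+ and IL-7R+. In adult liver (AL), 7R+ ILC1s (3 libraries) and 7R- ILC1s (4 libraries) were CD49a+ and CD49b low, and the fetal liver group 1 ILCs (FL G1-ILCs, 4 libraries) were intermediate for both by the labels. The immature ILC1s of bone marrow (BM iILC1s, 3 libraries) were CD49a+ and CD49b low, and NK cells of adult liver (2 libraries) and of bone marrow (3 libraries) were CD49a- and CD49b+. Salivary gland and lamina propria were minced and digested warm with collagenase D and DNase I, whereas liver and fetal liver were dissociated mechanically and marrow was flushed out. Tissue and enzymatic digestion therefore cannot be told apart in any comparison of SG G1-ILCs or LPL ILC1s with another group.

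Kruppel-like factors are transcription factors whose zinc fingers bind CACCC boxes and other GC-rich DNA, and their remaining sequence decides whether a target is activated or repressed. In lymphocytes KLF2 is known for holding T cells quiescent and for driving the gene of the exit receptor S1PR1. KLF3 and KLF12 repress through the corepressor CtBP, whereas KLF9, KLF10, KLF11 and KLF13 recruit SIN3. KLF4 and KLF6 are encoded by genes that respond early to growth factors and to stress.

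Totals ran from 2302643 to 7995906 counts per library, with a median of 4603579. FL G1-ILCs replicates 2 and 3 differed by about the noise of counting. Their chi-square divided by its degrees of freedom was 1.18, whereas the other 28 pairs of replicates gave 3.51 to 12.4. They were summed and counted as 1 sample, which leaves 24 samples. The study calls its libraries biological replicates, while the labels name no mice, so p-values measure the spread between these libraries. Levels are given as CPM, the count of a gene scaled to a common library size (TMM). The summed level of 4 group 1 ILC markers (Tbx21, Ncr1, Klrb1c, Il2rb) was between 4639 and 8734 CPM in every sample. In bulk RNA, fewer cells of a type and less RNA per cell cannot be told apart. Markers of other cells were not level across the groups. The summed level of 10 myeloid markers was 535.2 and 703 CPM in SG G1-ILCs and 108.8 to 1421 CPM in BM iILC1s, against 5.59 to 9.14 CPM in LPL ILC1s. In SG G1-ILCs over AL 7R- ILC1s 6 of the 8 myeloid markers tested were higher, beside 17.8% of all genes tested, and 0 lower, beside 14.6% (median log2 fold change 4.29), while S100a8 and S100a9 were at 0 in both SG libraries. Cdh1, which encodes E-cadherin, averaged 852.1 CPM in SG G1-ILCs. The CD49b gene Itga2 averaged 11.5 CPM in SG G1-ILCs, although they were sorted as CD49b+.

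By the GENCODE annotation of GRCm38, Klf2 (ENSMUSG00000055148) lies at chr8:72319033-72321656 on the plus strand, with 1847 bases of exon, and Klf3 (ENSMUSG00000029178) at chr5:64803388-64832901 on the plus strand, with 11243 bases. Klf4 (ENSMUSG00000003032) lies at chr4:55527143-55532466 on the minus strand, with 3049 bases, and Klf6 (ENSMUSG00000000078) at chr13:5861482-5870394 on the plus strand, with 4391 bases. The other 6 members lie on 6 further chromosomes. Reads were counted over whole genes, so isoforms are not told apart.

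Genome windows near the starts are shown for Klf2, which separated the liver subsets, and for Klf4 and Klf6, which stood out in the digested tissues, so that the motifs searched can be seen in their sequence. Each window is 220 bases of the mouse genome (RefSeq, GRCm38.p6), 5′ to 3′ on the strand of the gene, running to 31 bases before the gene's start in RefSeq, which can differ from the GENCODE start. Capitals mark matches on either strand to CACCC (the box read by Kruppel-like factors), TGACG (a part of the cAMP response element) and CTAAA followed by its reverse complement (a MEF2 site). The windows are chr8:72318812-72319031 (+) for Klf2, chr4:55532506-55532725 (-) for Klf4 and chr13:5861239-5861458 (+) for Klf6, and these 3 end 2, 40 and 24 bases before the GENCODE start.
Klf2: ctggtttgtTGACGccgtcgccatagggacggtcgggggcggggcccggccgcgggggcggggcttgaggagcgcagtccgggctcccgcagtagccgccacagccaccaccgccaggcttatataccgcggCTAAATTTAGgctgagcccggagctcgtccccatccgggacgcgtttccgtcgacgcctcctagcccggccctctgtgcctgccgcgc
Klf4: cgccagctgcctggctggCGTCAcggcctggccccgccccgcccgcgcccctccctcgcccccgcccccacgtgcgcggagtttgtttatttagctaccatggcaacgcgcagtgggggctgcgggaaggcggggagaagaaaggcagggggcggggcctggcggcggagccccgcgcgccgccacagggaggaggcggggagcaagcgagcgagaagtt
Klf6: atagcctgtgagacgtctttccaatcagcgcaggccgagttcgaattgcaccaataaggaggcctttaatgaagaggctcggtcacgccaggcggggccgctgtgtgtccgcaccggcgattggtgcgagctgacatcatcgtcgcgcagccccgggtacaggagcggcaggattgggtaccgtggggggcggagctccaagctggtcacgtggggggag
The Klf2 window held 1 MEF2 site and 1 TGACG, and the Klf4 window 1 TGACG on its other strand. The Klf6 window held none of the 3 motifs. Of the 9 members with a window, Klf3, Klf7, Klf11 and Klf12 have one that lies partly or wholly inside the gene as GENCODE places it. Among the 9, 5 held TGACG, against 14.8% of 32851 promoter windows, and 4 held CACCC, against 47.8%. CTAAA followed by its reverse complement was in the Klf2 window alone among the 9, and in 12 of the 32851 windows (0.0365%). Only this exact string was searched, so its share is not that of MEF2 sites in all their forms. These are matches of letters, and binding was not measured.

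The 10 genes were not used evenly. Per kilobase of exon, which is the scale on which genes can be compared, Klf6 had the highest level of the 10 in FL G1-ILCs, in SG G1-ILCs, in LPL ILC1s and in both adult liver ILC1 subsets, and Klf2 had it in AL NK cells, BM iILC1s and BM NK cells. Klf2 made up 57.2% of the summed level per kilobase of the 10 genes in AL NK cells, 49.7% in BM NK cells and 41.4% in BM iILC1s. In AL 7R+ ILC1s it made up 11.8% and Klf6 45.6%, and in AL 7R- ILC1s it made up 1.11% and Klf6 46.4%. Klf6 took 57.3% in LPL ILC1s and 44.6% in SG G1-ILCs, and in FL G1-ILCs the shares of Klf6 and Klf2 were 32.04% and 30.4%. The summed level of the 10 genes was 759.3 CPM per kilobase in LPL ILC1s, 549.1 in AL NK cells and 482.5 in SG G1-ILCs, and it was 145.8 to 323.7 in the remaining groups. AL 7R- ILC1s had the lowest sum.

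**Figure D1:**
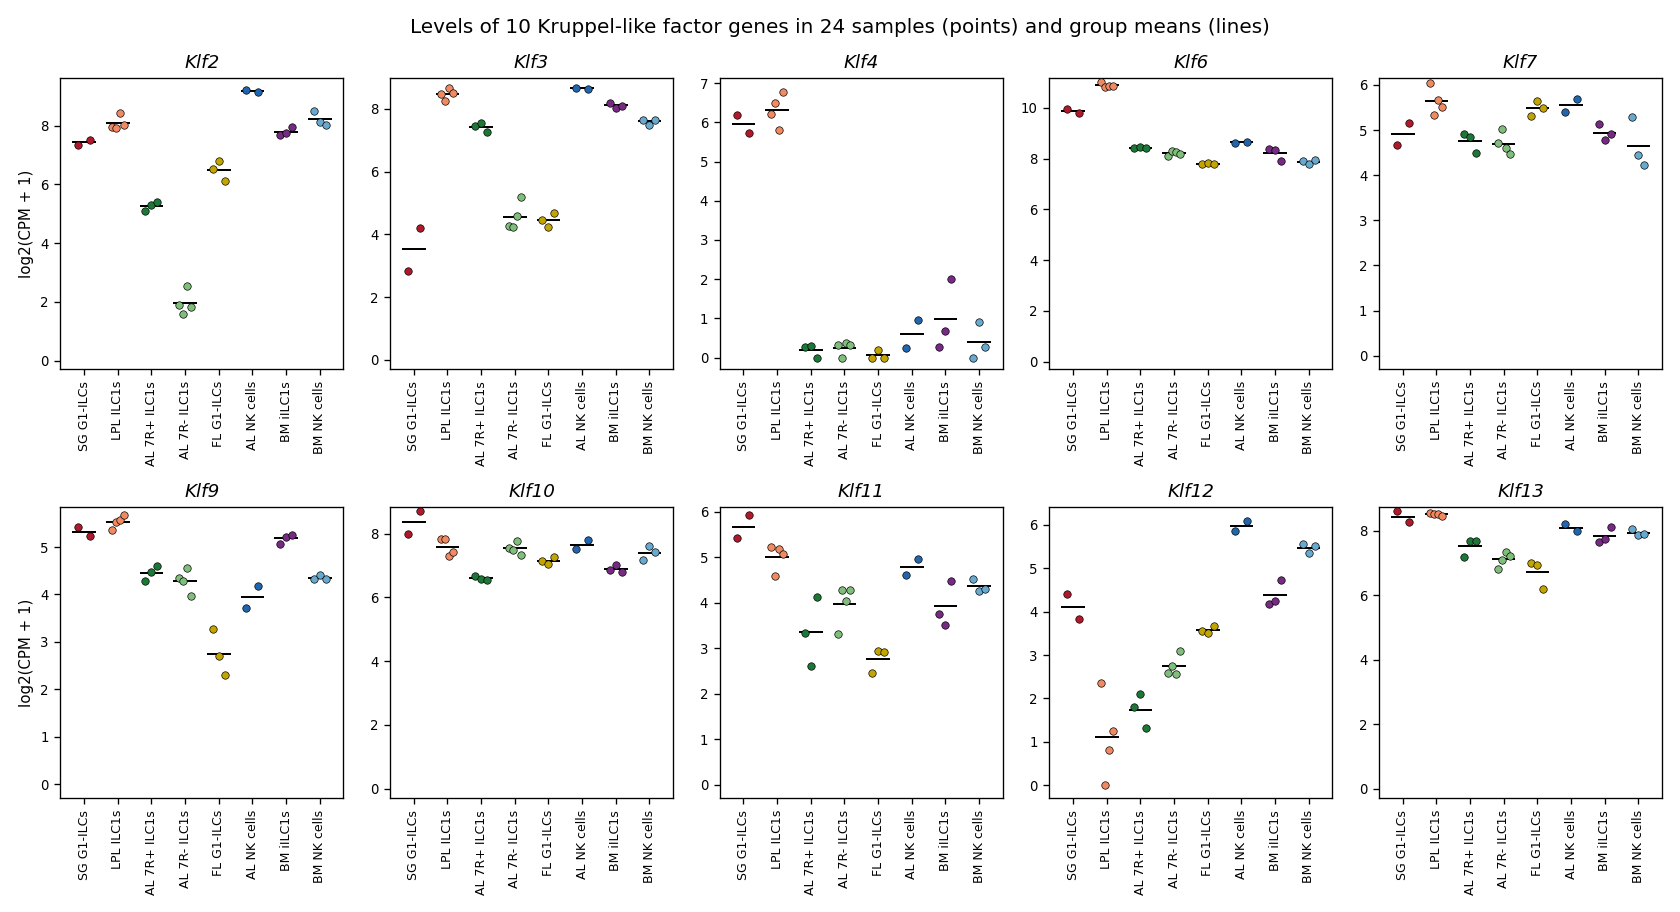
Levels of the 10 Kruppel-like factor genes in each sample, as log2(CPM + 1), with 1 panel per gene, 8 groups on the x axis, 1 point per sample and a line at the group mean. Klf2 runs from 2.0 to 4.8 CPM in AL 7R- ILC1s up to 560.8 and 599.8 CPM in AL NK cells, and Klf4 stands above 50 CPM in LPL ILC1s and SG G1-ILCs while no other sample exceeds 2.995 CPM.

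**Figure D2:**
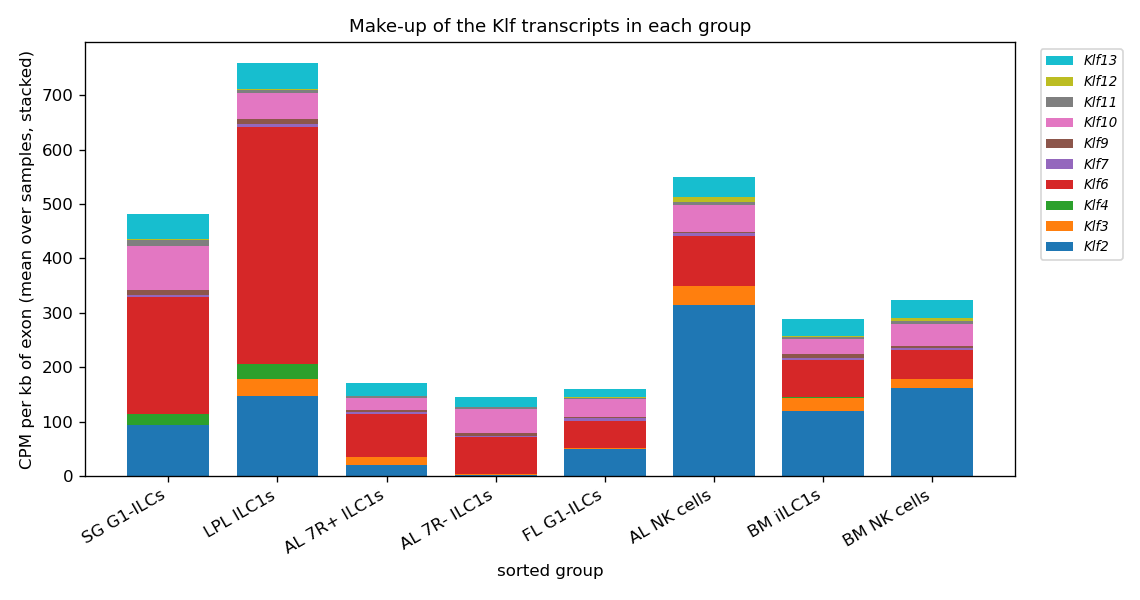
Mean level per kilobase of exon (CPM per kb) of the 10 genes, stacked for each of the 8 groups, with 1 colour per gene. Klf6 takes 57.3% of the bar of LPL ILC1s, and Klf2 takes 57.2% of the bar of AL NK cells and 1.11% of that of AL 7R- ILC1s.

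Klf2 separated the 2 liver ILC1 subsets more than any other member did. Its level was 33.2, 38.4 and 41.1 CPM in AL 7R+ ILC1s, against 2.7, 2.0, 4.8 and 2.5 CPM in AL 7R- ILC1s. The 2 subsets did not overlap, and Klf2 was 11.95-fold higher in AL 7R+ ILC1s (log2 fold change 3.58 ± 0.27 SE, adjusted p = 3.92e-11, edgeR's quasi-likelihood test with Benjamini-Hochberg adjustment, as for every adjusted p below). Both were far below the 2 NK libraries of the same organ, which had 599.8 and 560.8 CPM. Klf2 was 15.4-fold below AL NK cells in AL 7R+ ILC1s and 184-fold below them in AL 7R- ILC1s (adjusted p = 2.38e-14 and 2.30e-18).

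In bone marrow the same gene did not set ILC1s apart from NK cells to that extent. BM iILC1s had 203.4, 214.9 and 244.8 CPM of Klf2, against 357.6, 281.0 and 257.6 CPM in BM NK cells. The ranges did not overlap, but the log2 fold change of -0.44 ± 0.16 (SE) did not pass the test (adjusted p = 0.0908). The step between ILC1s and NK cells was taken as AL 7R+ ILC1s over AL NK cells in liver and BM iILC1s over BM NK cells in marrow. For Klf2 it was lower in liver than in marrow by a log2 difference of -3.51 ± 0.25 (SE, adjusted p = 1.02e-09). AL 7R+ ILC1s also had 5.85-fold less Klf2 than BM iILC1s (log2 fold change -2.55 ± 0.18 SE, adjusted p = 1.61e-10). Of 6 T cell markers, 5 were tested and all 5 were higher in BM iILC1s than in BM NK cells, beside 6.55% of genes. They summed to 220.6 to 323 CPM in BM iILC1s, against 17.17 to 19.83 CPM in BM NK cells, and their part in the levels of Klf2 and the other members there was not tested.

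FL G1-ILCs lay between these extremes. Klf2 was at 2.7, 2.0, 4.8 and 2.5 CPM in AL 7R- ILC1s, against 91.9, 111.1 and 68.0 CPM in FL G1-ILCs, a 28.7-fold lower level in the adult cells (adjusted p = 7.54e-15). From high to low the order of the group means was AL NK cells, BM NK cells, LPL ILC1s, BM iILC1s, SG G1-ILCs, FL G1-ILCs, then AL 7R+ ILC1s and, last, AL 7R- ILC1s. Neighbours in this order did not overlap except BM NK cells with LPL ILC1s and LPL ILC1s with BM iILC1s. The ratio of the highest group mean to the lowest was 192.7.

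Klf2 was higher in the 2 digested tissues than in both liver ILC1 subsets and FL G1-ILCs. For SG G1-ILCs it was below BM iILC1s and both NK cell groups, with no overlap. SG G1-ILCs had 161.3 and 182.2 CPM, and LPL ILC1s had 245.3, 240.9, 346.4 and 257.6 CPM. Klf2 in SG G1-ILCs was 54.4-fold above AL 7R- ILC1s, and in LPL ILC1s it was 7.22-fold above AL 7R+ ILC1s (adjusted p = 8.74e-17 and 3.63e-13). It was lower in SG G1-ILCs than in LPL ILC1s (log2 fold change -0.67 ± 0.18 SE, adjusted p = 0.00527), a call that is lost without SG G1-ILCs replicate 1 (log2 fold change -0.56, adjusted p = 0.102). Digestion and tissue cannot be told apart in these values. Markers of ILC3s, another kind of ILC, summed to 33.04 to 239.8 CPM in LPL ILC1s, against 4.332 to 7.486 CPM in AL 7R+ ILC1s, and their part in the levels of the members was not tested.

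S1pr1, which KLF2 is known to drive in T cells, was near 0 where Klf2 was lowest. Its product lets lymphocytes leave tissues along a sphingosine-1-phosphate gradient. S1pr1 had 1 count over the 4 libraries of AL 7R- ILC1s and 3.301, 0.221 and 2.99 CPM in AL 7R+ ILC1s. It was at 155.1, 121.6 and 172.1 CPM in BM iILC1s and at 156.8 and 108.6 CPM in AL NK cells. Liver ILC1s of both subsets thus did not overlap either of these groups for S1pr1. S1pr1 was lower in AL 7R+ ILC1s than in BM iILC1s (log2 fold change -5.99 ± 0.43 SE, adjusted p = 4.50e-11), and for BM iILC1s over BM NK cells its log2 fold change was -0.16 (adjusted p = 0.828).

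S1pr5, which encodes the exit receptor known from NK cells, had 731.5 and 733.6 CPM in AL NK cells and 186.8 to 267.1 CPM in BM NK cells, and did not exceed 20.6 CPM in any sample of the other 6 groups. S1pr5 was therefore low in BM iILC1s, at 10.8, 14.7 and 20.6 CPM, where Klf2 was not (log2 fold change over BM NK cells -3.91, adjusted p = 2.85e-11).

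In the digested tissues Klf2 was above both liver ILC1 subsets, while S1pr1 was far below its level in BM iILC1s. S1pr1 was 3.95 and 10.4 CPM in SG G1-ILCs and 13.5 to 31.5 CPM in LPL ILC1s, against 0.221 to 3.301 CPM in AL 7R+ ILC1s and 121.6 to 172.1 CPM in BM iILC1s, a group with Klf2 levels close to those of LPL ILC1s. S1pr1 was higher in LPL ILC1s than in AL 7R+ ILC1s (log2 fold change 3.03 ± 0.44 SE, adjusted p = 6.16e-07). Cd69, whose product pulls S1PR1 off the cell surface, had 509.6 and 443.2 CPM in SG G1-ILCs and 1256 to 1548 CPM in LPL ILC1s, against 34.0 to 140.7 CPM in the samples of the 6 groups that were not digested. Cd69 rose in LPL ILC1s over AL 7R+ ILC1s (log2 fold change 4.16, adjusted p = 2.63e-16) and in SG G1-ILCs over AL 7R- ILC1s (2.05). Ccr7, which encodes a chemokine receptor for lymph node entry, was at 84.1 to 231 CPM in LPL ILC1s, at 0 in both SG libraries and at most 3.97 CPM elsewhere.

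Across the 24 samples log2 levels of Klf2 and S1pr1 had a Pearson r of 0.87, and across the 18 samples without LPL ILC1s and SG G1-ILCs the r was 0.94. For Klf2 and S1pr5 the values were 0.32 and 0.59. For Itgb7, which encodes the beta7 integrin subunit and is on the same list of KLF2 targets and opponents as S1pr1, they were -0.65 and -0.64. The sign for Itgb7 was thus opposite to that for S1pr1. The points share their groups, so these values are a description of 8 group levels more than of separate samples. Itgb7 was higher in AL 7R- ILC1s than in AL NK cells (1227 and 739.5 CPM on average, log2 fold change 0.73, adjusted p = 1.32e-05). The list of KLF2 targets and opponents held 6 genes (S1pr1, S1pr4, S1pr5, Ccr7, Itgb7 and Cd69). It mixes targets with Cd69, so its counts of higher and lower genes are not counts of targets alone. AL 7R+ ILC1s over AL NK cells had 1 of the 6 higher (Itgb7), beside 7.96% of genes tested, and 4 lower, beside 7.61%. Over BM iILC1s the AL 7R+ ILC1s had 0 higher, beside 3.84%, and 3 lower, beside 4.23%.

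**Figure D3:**
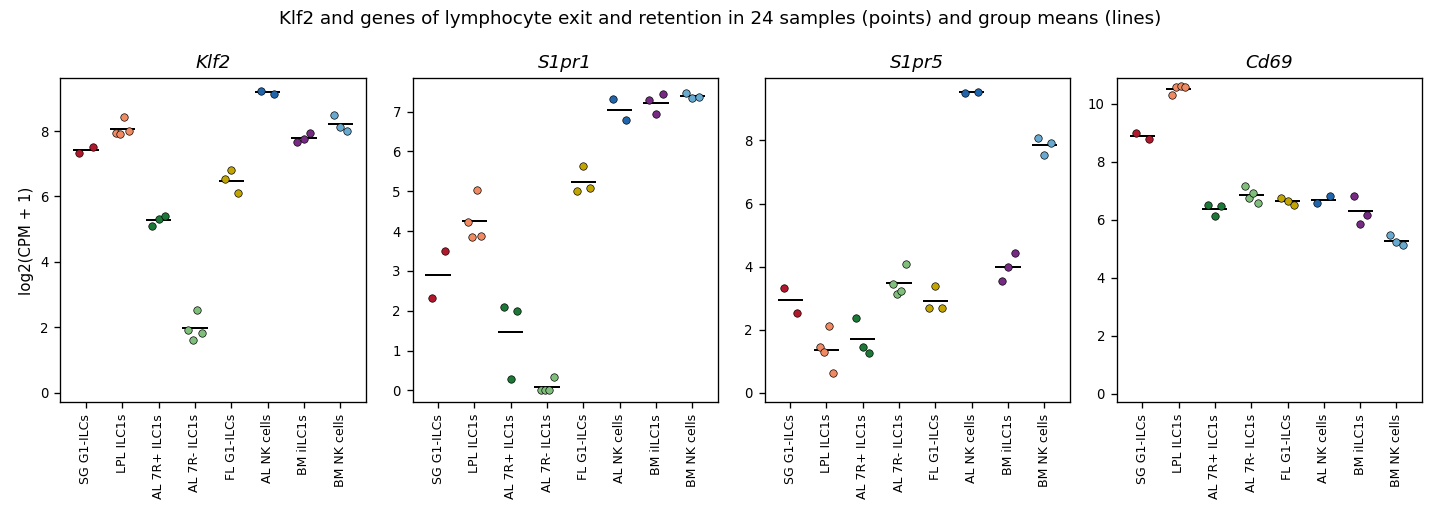
Levels of Klf2 and of 3 genes of tissue exit and retention (S1pr1, S1pr5, Cd69) as log2(CPM + 1), with 1 panel per gene, 1 point per sample and a line at the group mean for the 8 groups. S1pr1 is high in BM iILC1s (121.6 to 172.1 CPM) and close to 0 in AL 7R- ILC1s, and S1pr5 is above 180 CPM only in the 2 NK cell groups.

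Klf3, which encodes a repressor that acts through CtBP, was the other member to rise in AL 7R+ ILC1s. It had 173.5, 186.3 and 153.5 CPM in AL 7R+ ILC1s, against 18.1, 17.7, 23.0 and 35.9 CPM in AL 7R- ILC1s. The subsets did not overlap and differed 7.29-fold (log2 fold change 2.87 ± 0.19 SE, adjusted p = 4.90e-11). AL 7R- ILC1s were close to FL G1-ILCs, which had 20.8, 17.7 and 24.6 CPM, with a log2 fold change of 0.17 ± 0.21 (SE, adjusted p = 0.553), and in this Klf3 was unlike Klf2.

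Among the remaining groups Klf3 was high in AL NK cells (409.3 and 392.5 CPM), LPL ILC1s (300.9 to 403.1 CPM), BM iILC1s (262.6 to 292.1 CPM) and BM NK cells (179.4 to 200.7 CPM). It was lowest in SG G1-ILCs, at 6.2 and 17.4 CPM. The 2 digested tissues thus stood at opposite ends for Klf3, and SG G1-ILCs had 29.6-fold less of it than LPL ILC1s (log2 fold change -4.89 ± 0.27 SE, adjusted p = 2.12e-13). Klf3 was lower in SG G1-ILCs than in AL 7R- ILC1s too (log2 fold change -0.96, adjusted p = 0.00942), but the call is lost without SG G1-ILCs replicate 1 (-0.43, adjusted p = 0.343) and when only these groups are fitted (-0.97, adjusted p = 0.0714). The overlapping antisense gene of Klf3 had at most 22 counts in a library.

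Klf12, which also encodes a CtBP-binding repressor, was a gene of NK cells in these data. AL NK cells had 56.6 and 67.4 CPM and BM NK cells had 45.8, 39.5 and 44.3 CPM, and no other sample exceeded 25.4 CPM. Klf12 was at 2.5, 3.3 and 1.5 CPM in AL 7R+ ILC1s, 26.4-fold below AL NK cells, and at 5.0, 5.7, 4.9 and 7.5 CPM in AL 7R- ILC1s, 10.7-fold below them (adjusted p = 1.10e-08 and 1.01e-07). In marrow the step was smaller, with 17.1, 17.9 and 25.4 CPM in BM iILC1s, and the difference between liver and marrow in this step was -3.62 ± 0.58 (log2, SE, adjusted p = 2.63e-04).

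The summed level of 4 NK cell markers was 1796 and 1927 CPM in SG G1-ILCs, against 30.65 to 57.72 CPM in AL 7R- ILC1s and 49.3 to 161.2 CPM in LPL ILC1s, and its part in the levels of Klf12 and Klf2 in SG G1-ILCs was not tested.

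Klf12 did not follow Klf3 in the other tissues. It was at 20.3 and 13.1 CPM in SG G1-ILCs, against 4.1, 0, 0.76 and 1.4 CPM in LPL ILC1s, so that SG G1-ILCs had 10.7-fold more of it (adjusted p = 2.17e-06) and 29.6-fold less Klf3. In AL 7R+ ILC1s over AL 7R- ILC1s, Klf12 had a log2 fold change of -1.30 (adjusted p = 0.0907), with ranges that did not overlap. This comparison passed the threshold with DESeq2 (adjusted p = 0.00627), without a low-count filter (0.0339) and when only the 6 groups that were not digested were fitted (0.00603). Calls of Klf12 in AL 7R- ILC1s over FL G1-ILCs (-0.92, adjusted p = 0.0455) and in BM iILC1s over BM NK cells (-1.10, adjusted p = 0.0442) were lost with the other size factors (adjusted p = 0.0574 and 0.0512).

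Klf6 had the highest level per kilobase of the 10 genes in LPL ILC1s and SG G1-ILCs and is known as an early response gene. LPL ILC1s had 2051, 1830, 1882 and 1879 CPM and SG G1-ILCs had 998.3 and 892.0 CPM, whereas the samples of the other 6 groups had 218.4 to 399.2 CPM. Klf6 was 5.57-fold higher in LPL ILC1s than in AL 7R+ ILC1s (log2 fold change 2.48 ± 0.09 SE, adjusted p = 1.06e-17) and 3.19-fold higher in SG G1-ILCs than in AL 7R- ILC1s (1.67 ± 0.10 SE, adjusted p = 8.18e-14). It was lower in SG G1-ILCs than in LPL ILC1s (log2 fold change -1.02, adjusted p = 6.96e-09).

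Klf4, known for its part in monocyte differentiation and as an early response gene, was found in the same 2 groups. It had 71.6 and 52.1 CPM in SG G1-ILCs and 72.6, 88.6, 55.4 and 109.1 CPM in LPL ILC1s. In the remaining 18 samples it was between 0 and 2.995 CPM, with the highest value in BM iILC1s replicate 3. The 4 libraries of LPL ILC1s held 1170 counts of Klf4 and the 3 of AL 7R+ ILC1s held 2, a ratio of CPM of 730.6 (95% exact interval 201.8 to 6040, counting error only). SG G1-ILCs held 460 counts and AL 7R- ILC1s 4, a ratio of 319.5 (124 to 1178). Both comparisons were called (adjusted p = 3.32e-11 and 7.17e-11), and SG G1-ILCs over LPL ILC1s gave a log2 fold change of -0.40 (adjusted p = 0.505).

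A list of 20 early response genes known to respond to warm enzymatic dissociation (Fos, Junb, Egr1, Atf3 and others) moved with Klf6 and Klf4. Its summed level was 21457.5 and 23427 CPM in SG G1-ILCs and 29801.1 to 35807.1 CPM in LPL ILC1s, against 1250.73 to 2284.09 CPM in the samples of the other 6 groups. Of the 20 genes, 18 were higher in LPL ILC1s than in AL 7R+ ILC1s, beside 24.8% of genes (median log2 fold change 4.54, against -0.0188 over all genes tested), and 19 were higher in SG G1-ILCs than in AL 7R- ILC1s, beside 17.8% (4.09, against -0.0271). The part of this response in the levels of Klf6 and Klf4 was not tested, and in these samples digestion cannot be told apart from tissue. Myeloid markers were at 535.2 and 703 CPM in SG G1-ILCs and at 5.59 to 9.14 CPM in LPL ILC1s, and BM iILC1s replicate 2, with 1421 CPM of the myeloid list, had 0.589 CPM of Klf4. The part of these markers in the level of Klf4 was not tested.

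Within the 18 samples that were not digested, log2 levels of Klf6 had a Pearson r of 0.02 with Klf4 and of 0.01 with Junb. Klf4 did not exceed 2.995 CPM in these samples, so an r with it mostly reflects the noise of counting. No value over all 24 samples is given because they fall into separate clusters. Junb is 1 of the 20 genes of the early response list, and no r of Klf6 with the whole list is given. The summed list averaged 2143.1 CPM in AL NK cells, 1602.45 CPM in BM iILC1s and 1589.87 CPM in AL 7R+ ILC1s. For AL 7R- ILC1s, BM NK cells and FL G1-ILCs it was 1517.08, 1471.03 and 1386.29 CPM. Klf6 still varied among these 6 groups, with means of 397.7, 299, 342.9, 296.5, 235 and 223.2 CPM in the same order. It had 396.3 and 399.2 CPM in AL NK cells, against 239.1, 220.8 and 245.1 CPM in BM NK cells, with no overlap, and was 1.69-fold higher in liver (adjusted p = 4.39e-05). The early response list was at 2002.11 and 2284.09 CPM in AL NK cells and 1447.27 to 1501.5 CPM in BM NK cells, with 7 of its 20 genes higher, beside 1.57% of genes, and 0 lower, beside 1.01%. Its part in the difference was not tested. AL 7R- ILC1s, at 272.1 to 318.1 CPM, were below AL NK cells (log2 fold change -0.42, adjusted p = 0.00178) and above FL G1-ILCs, which had 218.4 to 228.0 CPM (0.41, adjusted p = 3.98e-04). The 2 liver subsets were not told apart by Klf6, with 338.5 to 347.2 CPM in AL 7R+ ILC1s and a log2 fold change over AL 7R- ILC1s of 0.21 (adjusted p = 0.204).

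**Figure D4:**
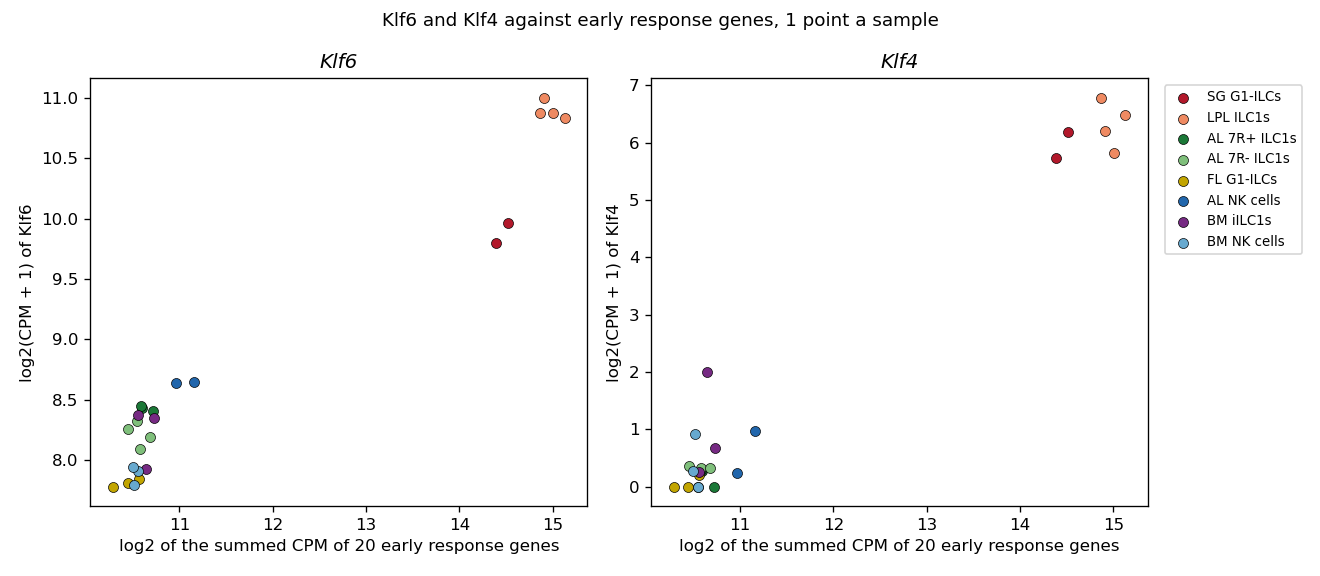
Levels of Klf6 (left) and Klf4 (right) as log2(CPM + 1) on the y axis against the log2 summed CPM of 20 early response genes on the x axis, with 1 point per sample coloured by group. The 6 digested samples (SG G1-ILCs and LPL ILC1s) lie at 21457.5 CPM of the list or more and the other 18 at 2284.09 CPM or less, with a gap between them on both axes.

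Klf10 and Klf11 encode factors known as early targets of TGF-beta. Klf10 was the 1 member that fell in AL 7R+ ILC1s relative to AL 7R- ILC1s. It had 101.7, 93.8 and 92.5 CPM in AL 7R+ ILC1s, against 186.6, 179.4, 218.9 and 160.6 CPM in AL 7R- ILC1s, with no overlap (log2 fold change -0.96 ± 0.15 SE, adjusted p = 1.80e-04). AL 7R+ ILC1s had the lowest group mean of Klf10 and did not overlap BM iILC1s, the next in the order (109.2 to 129.1 CPM). They were also below AL NK cells for Klf10 (181.6 and 222.0 CPM, log2 fold change -1.07 ± 0.18 SE, adjusted p = 7.70e-05), whereas AL 7R- ILC1s overlapped AL NK cells.

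The highest levels of Klf10 and Klf11 were in SG G1-ILCs. Klf10 had 255.5 and 419.2 CPM in SG G1-ILCs and 155.8 to 229.2 CPM in LPL ILC1s. Its call in SG G1-ILCs over AL 7R- ILC1s (log2 fold change 0.86, adjusted p = 2.25e-04) is lost without SG G1-ILCs replicate 2 (0.45, adjusted p = 0.0993), as is that over LPL ILC1s (0.79, adjusted p = 5.26e-04, and 0.42, adjusted p = 0.127, without it). Klf11 had 42.0 and 59.6 CPM in SG G1-ILCs and 22.9 to 36.5 CPM in LPL ILC1s, and it was higher in SG G1-ILCs than in AL 7R- ILC1s (log2 fold change 1.73 ± 0.35 SE, adjusted p = 2.17e-04) and in LPL ILC1s than in AL 7R+ ILC1s (1.59 ± 0.32 SE, adjusted p = 2.16e-04). Klf11 was at 8.95 to 18.54 CPM in AL 7R- ILC1s, against 4.49 to 6.66 CPM in FL G1-ILCs (log2 fold change 1.38 ± 0.34 SE, adjusted p = 0.00197). Tgfbr1, which encodes a TGF-beta receptor, averaged 139.0 CPM in AL 7R- ILC1s, 127.0 in SG G1-ILCs and 25.1 in LPL ILC1s. Its levels in the other groups and those of Tgfbr2 are not given here. These values therefore do not show whether Klf10 or Klf11 follow the receptors across the groups. The part of TGF-beta in the levels of Klf10 and Klf11 was not tested.

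Klf13 and Klf9 encode factors that recruit SIN3, and KLF13 is known for turning on Ccl5 late in T cell activation. Klf13 was between 72.4 and 389.2 CPM in every sample. It was highest in LPL ILC1s (349.0 to 375.3 CPM) and SG G1-ILCs (389.2 and 309.8 CPM), which overlapped each other and no other group. Klf13 was lower in AL 7R- ILC1s (110.6 to 162.2 CPM) than in AL NK cells (293.3 and 255.8 CPM, log2 fold change -0.97 ± 0.18 SE, adjusted p = 1.14e-04). For AL 7R+ ILC1s (145.2 to 205.2 CPM) over AL NK cells the log2 fold change was -0.57 (adjusted p = 0.0355), a call that is lost without either AL NK library (adjusted p = 0.285 and 0.0683) and without AL 7R+ ILC1s replicate 1 (0.174).

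Klf9, known as a glucocorticoid-responsive gene, rose in ILC1s over NK cells in marrow. It had 32.6, 36.1 and 37.3 CPM in BM iILC1s, against 19.2, 20.4 and 19.0 CPM in BM NK cells (log2 fold change 0.86 ± 0.22 SE, adjusted p = 0.00961). BM iILC1s, SG G1-ILCs (41.7 and 36.4 CPM) and LPL ILC1s (39.9 to 49.9 CPM) formed the upper end. FL G1-ILCs formed the lower end alone, with 3.91 to 8.61 CPM, against 14.6 to 22.7 CPM in AL 7R- ILC1s (log2 fold change of the adult over the fetal cells 1.64 ± 0.23 SE, adjusted p = 2.33e-06). The call of Klf9 in BM iILC1s over BM NK cells is lost without a low-count filter (0.81, adjusted p = 0.076).

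Klf7, known from neurons and present in many tissues, was the most even member. Its group means differed by at most 1.98-fold, and single samples ran from 17.6 to 65.3 CPM. Klf7 was higher in LPL ILC1s (39.6 to 65.3 CPM) than in AL 7R+ ILC1s (21.7 to 29.1 CPM, log2 fold change 0.94 ± 0.23 SE, adjusted p = 0.00173) and lower in AL 7R- ILC1s (21.1 to 31.4 CPM) than in FL G1-ILCs (38.7 to 48.9 CPM, -0.79 ± 0.23 SE, adjusted p = 0.0065). The ratio of the highest to the lowest group mean was 3.41 for Klf13, 3.51 for Klf10, 7.54 for Klf9, 8.56 for Klf6, 8.63 for Klf11, 33.9 for Klf3 and 39.8 for Klf12, and for Klf4, whose lowest group held single counts, no ratio over all groups is given.

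Across the 12 comparisons the members called at an adjusted p under 0.05 can be read against the share of all 14123 genes tested. In AL 7R+ ILC1s over AL 7R- ILC1s, 2 of 10 members were higher (Klf2, Klf3), beside 3.06% of genes, and 1 was lower (Klf10), beside 2.22%, with 5.28% of genes called in either direction. Over AL NK cells, AL 7R+ ILC1s had 0 members higher, beside 7.96% of genes, and 7 lower, beside 7.61%, with 15.6% called in all. The 7 were Klf2, Klf3, Klf7, Klf10, Klf11, Klf12 and Klf13. The call of Klf7 is lost without any 1 of the AL 7R+ ILC1s libraries (adjusted p = 0.0516 to 0.142). That of Klf11 is lost without AL 7R+ ILC1s replicate 2 (0.0681). Without AL NK cells replicate 2 the log2 fold changes of Klf7 and Klf11 were -0.68 and -1.16, against -0.82 and -1.34 with all samples. Over AL NK cells AL 7R- ILC1s had 0 higher, beside 9.94%, and 6 lower, beside 10.5%, with 20.4% called in all. The 6 were Klf2, Klf3, Klf6, Klf7, Klf12 and Klf13. These 2 comparisons share the AL NK libraries. AL 7R- ILC1s over FL G1-ILCs gave 4 higher (Klf6, Klf9, Klf10, Klf11), beside 20.1% of genes, and 3 lower (Klf2, Klf7, Klf12), beside 22.4%, with 42.6% called in all. The call of Klf10 there is lost without AL 7R- ILC1s replicate 3, FL G1-ILCs replicate 1 or FL G1-ILCs replicates 2 and 3 (adjusted p = 0.0878 to 0.137). That of Klf12 is lost without AL 7R- ILC1s replicate 1, 2 or 3 or any 1 of the FL G1-ILCs samples (0.076 to 0.11). BM iILC1s over BM NK cells gave 2 higher (Klf6, Klf9), beside 6.55%, and 2 lower (Klf10, Klf12), beside 5.55%, with 12.1% called in all. None of these calls was kept under every alternative and every sample left out. Klf10 was lost without BM iILC1s replicate 1 or 3 or BM NK cells replicate 2 or 3 (adjusted p = 0.0747 to 0.197). Klf6 was lost without a low-count filter (adjusted p = 0.136), and Klf12 without any 1 of the BM NK libraries (0.0877 to 0.131). AL 7R+ ILC1s over BM iILC1s gave 0 higher, beside 3.84%, and 4 lower (Klf2, Klf3, Klf9, Klf12), beside 4.23%, with 8.06% called in all. The call of Klf9 there is lost without any 1 of the compared libraries (adjusted p = 0.0503 to 0.145) and without a low-count filter (0.226). That of Klf3 is lost without AL 7R+ ILC1s replicate 1 or 3 or BM iILC1s replicate 1 (adjusted p = 0.0517 to 0.0877).

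AL NK cells over BM NK cells compares cells sorted by the same gate in 2 organs, and the mix of cells within that gate was not measured. This comparison gave 3 members higher (Klf2, Klf3, Klf6), beside 1.57% of genes, and 0 lower, beside 1.01%, with 2.58% called in all. Klf2 was 1.94-fold, Klf3 2.07-fold and Klf6 1.69-fold higher in liver (adjusted p = 0.00231, 0.0028 and 4.39e-05). The call of Klf2 there is lost without AL NK cells replicate 1 (adjusted p = 0.051). The difference between liver and marrow in the step from NK cells to ILC1s was called for 4 members, each lower in liver (Klf2, Klf3, Klf6, Klf12), beside 1.74% of genes lower, 1.35% higher and 3.09% in all. For Klf6 it was -0.56 (adjusted p = 0.0192), and was lost without a low-count filter (adjusted p = 0.142) and when only these groups were fitted (0.0638).

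The comparisons of the digested tissues called many genes of every kind. LPL ILC1s over AL 7R+ ILC1s gave 9 members higher, beside 24.8% of genes, and 0 lower, beside 26.2%, with 51.0% called in all. SG G1-ILCs over AL 7R- ILC1s gave 8 higher, beside 17.8%, and 1 lower (Klf3), beside 14.6%, with 32.4% called in all. The median log2 fold change of the 10 members was 1.08 and 1.43 in these comparisons, against -0.0188 and -0.0271 over all genes. SG G1-ILCs over LPL ILC1s gave 2 higher (Klf10, Klf12), beside 18.7%, and 4 lower (Klf2, Klf3, Klf6, Klf7), beside 16.8%, with 35.5% called in all. The call of Klf7 there is lost without LPL ILC1s replicate 1 (adjusted p = 0.0927) and without a low-count filter (0.16). Its log2 fold change of -0.75 became -0.50 without SG G1-ILCs replicate 1 and -0.99 without replicate 2. For Klf12 in SG G1-ILCs over AL 7R- ILC1s, 1.53 became 1.19 without SG G1-ILCs replicate 1. For the mean of LPL ILC1s and SG G1-ILCs over the mean of the 5 other adult groups, 8 members were higher, beside 27.5% of genes, and 2 lower (Klf3, Klf12), beside 27.3%, with 54.8% called in all. The call of Klf7 there (0.37, adjusted p = 0.0447) is lost under 16 of the alternatives. That mean hides opposite levels of Klf3, which was low in SG G1-ILCs and high in LPL ILC1s.

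**Figure D5:**
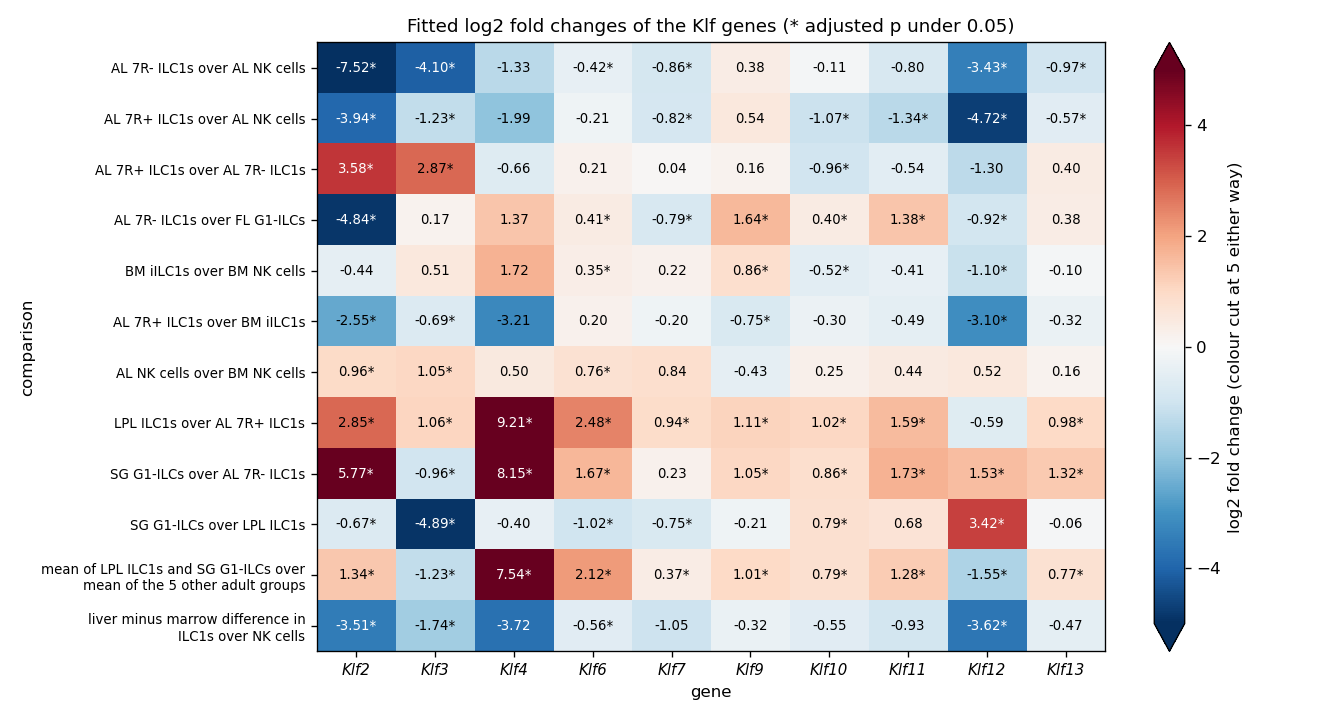
Fitted log2 fold changes of the 10 genes (columns) in the 12 comparisons (rows), as a heat map with a colour scale that ends at 5 in each direction, where a star marks an adjusted p under 0.05. Klf2 stands out in opposite directions between comparisons, at 3.58 in AL 7R+ ILC1s over AL 7R- ILC1s but -7.52 in AL 7R- ILC1s over AL NK cells, and the 2 comparisons of a digested tissue with a liver subset are mostly positive.

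Regulators and partners of these factors were listed as 15 genes, all of them tested. In LPL ILC1s over AL 7R+ ILC1s 5 were higher, beside 24.8% of genes, and 5 lower, beside 26.2%. In SG G1-ILCs over AL 7R- ILC1s 7 were higher, beside 17.8%, and 2 lower, beside 14.6%. Over AL NK cells each liver ILC1 subset had 3 higher and 6 lower, beside 7.96% and 7.61% for AL 7R+ ILC1s and 9.94% and 10.5% for AL 7R- ILC1s. AL 7R+ ILC1s over AL 7R- ILC1s had 1 higher, beside 3.06%, and 2 lower, beside 2.22%. Foxo1, the activator of Klf2 in T cells, averaged 185.9 CPM in SG G1-ILCs and 232.0 CPM in LPL ILC1s, and 55.2 CPM in AL 7R+ ILC1s and 56.3 CPM in AL 7R- ILC1s. Klf2 differed 11.95-fold between these 2 liver subsets, whose levels of Foxo1 RNA were alike. Mean Foxo1 was 104.8 CPM for AL NK cells, 96.9 CPM for BM NK cells, 88.9 CPM for BM iILC1s and 34.9 CPM for FL G1-ILCs. Only RNA was measured, and the part of Foxo1 in the levels of Klf2 was not tested. Foxo1 rose in LPL ILC1s over AL 7R+ ILC1s (log2 fold change 2.07, adjusted p = 3.12e-10) and in SG G1-ILCs over AL 7R- ILC1s (1.72, adjusted p = 3.83e-08).

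Mef2c, a member of the MEF2 family that drives Klf2 in endothelial cells, averaged 1.66 CPM in AL 7R+ ILC1s and 1.51 CPM in AL 7R- ILC1s, against 40.9 CPM in AL NK cells (log2 fold changes -4.39 and -4.88, adjusted p = 1.30e-06 and 9.12e-08). In marrow it averaged 10.7 CPM in BM iILC1s, against 72.6 CPM in BM NK cells (log2 fold change -2.76, adjusted p = 1.19e-04). Mef2c was at 0.652 to 1.123 CPM in FL G1-ILCs, 5.162 to 13.22 CPM in LPL ILC1s and 22.28 and 31.58 CPM in SG G1-ILCs. Its part in the levels of Klf2 was not tested. Ctbp2, which encodes a corepressor bound by KLF3 and KLF12, was higher in SG G1-ILCs (24.1 CPM) than in LPL ILC1s (3.24 CPM, log2 fold change 2.88, adjusted p = 7.30e-08). Wwp1, which encodes a ubiquitin ligase of Kruppel-like factors, had 115.2, 101 and 97.8 CPM in BM iILC1s, against 51.7, 40.9 and 57.3 CPM in BM NK cells (log2 fold change 1.07, adjusted p = 4.00e-04).

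Of 16 other Kruppel-like and Sp factor genes, 8 passed the filter on low counts. Klf16 averaged 31.5 CPM in SG G1-ILCs, against 9.48 CPM in AL 7R- ILC1s (log2 fold change 1.73, adjusted p = 2.27e-04). Sp4 was lower in AL 7R- ILC1s (74.1 CPM) than in FL G1-ILCs (211.6 CPM, log2 fold change -1.51, adjusted p = 8.41e-09). Klf1, the erythroid member of the family, averaged at most 5.94 CPM, in FL G1-ILCs. In LPL ILC1s over AL 7R+ ILC1s 1 of the 8 was higher, beside 24.8% of genes, and 2 were lower, beside 26.2%. In SG G1-ILCs over AL 7R- ILC1s it was likewise 1, beside 17.8%, and 2, beside 14.6%, and in AL 7R+ ILC1s over AL 7R- ILC1s 0 and 0, beside 3.06% and 2.22%.

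The genes whose log2 levels were most like those of each member were ranked by Pearson r over the 24 samples, among genes with an average log2 CPM of at least 5. For Klf2 they were Sgk1, which encodes a kinase induced by serum and glucocorticoids (0.916), Trnau1ap (0.885) and Emb (0.884). For Klf3 they were Zfp53 (0.939), Tcf7 (0.914), which encodes the transcription factor TCF-1, and Pik3r5 (0.911). Over the 18 samples without LPL ILC1s and SG G1-ILCs the r of Klf3 with Tcf7 was 0.964. Tcf7 had 69.5 to 102.5 CPM in AL 7R+ ILC1s, against 6.46 to 10.6 CPM in AL 7R- ILC1s, and 24.5 and 27.0 CPM in SG G1-ILCs, where Klf3 was low as well.

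For Klf4 the closest genes were Junb, Fosl2 and Tiparp, but over the 18 samples without the digested tissues their r was 0.360, 0.263 and 0.434. Klf4 did not exceed 2.995 CPM in those samples, so these r values mostly reflect the noise of counting. For Klf6 the closest genes were Tnfaip3, which encodes the brake A20 on NF-kappaB, Orai1 and Stat3, with 0.864, 0.756 and 0.725 over the 18 samples. Klf13 was most like Foxo1, with 0.945 over 24 and 0.932 over 18 samples. Klf12 was most like St3gal4 (0.915), a sialyltransferase gene, and Arsb (0.904), Klf9 like Prkd3 (0.917) and Pnrc1 (0.906), and Klf11 like Tob1 (0.900). Klf7 and Klf10 had no gene above 0.803, the r of Klf10 with Topors, and the highest for Klf7 was 0.796 with Ezr. These values describe levels shared over 8 groups.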

How the data were processed

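The deposited values are raw whole-number counts for 25 libraries, which the authors made with fastp 0.23.0 (trimming), HISAT2 2.1.0 (alignment to mm10) and featureCounts (Subread 1.6.5). The annotation release and the settings for strandedness and multiply mapped reads are not given in the sources used here, so overlapping antisense genes cannot be separated. Of the identifiers, 849 (0.104% of counts) had no GENCODE vM21 name. Counts were scaled by TMM and tested with edgeR 4.0.16 in R 4.3.3 (quasi-likelihood test, 1 fit of all 8 groups, filterByExpr with a minimum count of 10, adjusted p under 0.05), after a check on simulated data. FL G1-ILCs replicates 2 and 3 were summed as 1 sample. Alternatives were DESeq2 1.42.0 and its size factors (RLE), no filter or a minimum count of 50, a replicate block, only the groups compared, all 25 libraries, equal depth, a log2 limit of 1, and leaving out each sample. Fitting only the 6 groups not digested was added after seeing the data. The named genes are the 10 members, genes of the lists, and the 3 genes most like each member (log2 CPM with a prior count of 2). Members and lists were chosen with earlier results of these data known. 1 gene of the lists is not reported here.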

Additional observations from a re-analysis of the deposited data

Results flagged for a closer look

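Of 20 sets of at least 4 samples that were tested for a library standing apart, where chance marks about 1 in 20, 2 had one. Klf2 was at 346.4 CPM in LPL ILC1s replicate 3 and at 240.9 to 257.6 CPM in the other 3 libraries. Klf4 was at 0 in AL 7R- ILC1s replicate 2 and at 0.2485 to 0.2893 CPM in the other 3, a step of 1 or 2 counts.

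The effect of ILC1s over NK cells differed between liver and marrow, by a test of the difference itself, for Klf2 (-3.51, adjusted p = 1.02e-09), Klf3 (-1.74, adjusted p = 2.23e-04), Klf12 (-3.62, adjusted p = 2.63e-04) and Klf6 (-0.56, adjusted p = 0.0192, edgeR). Each value is a log2 difference, liver minus marrow. For Klf3 AL 7R+ ILC1s were below AL NK cells (-1.23), while BM iILC1s over BM NK cells gave 0.51 (adjusted p = 0.0723).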

How the results depend on the processing

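Apart from the log2 limit of 1, 51 of the 72 calls of a member were kept under every alternative and every sample left out. None reversed. With a log2 limit of 1 the members called were 3 in AL 7R- ILC1s over AL NK cells, 3 in AL 7R- ILC1s over FL G1-ILCs, 1 in BM iILC1s over BM NK cells, 2 in AL 7R+ ILC1s over BM iILC1s, 1 in AL NK cells over BM NK cells and 3 in SG G1-ILCs over LPL ILC1s. Leaving out 1 sample gave 3 to 3 in AL 7R+ ILC1s over AL 7R- ILC1s, 4 to 6 in AL 7R+ ILC1s over AL NK cells, 5 to 6 in AL 7R- ILC1s over AL NK cells, 5 to 7 over FL G1-ILCs, 1 to 3 in BM iILC1s over BM NK cells, 2 to 4 in AL 7R+ ILC1s over BM iILC1s, 2 to 4 in AL NK cells over BM NK cells, 9 to 10 in LPL ILC1s over AL 7R+ ILC1s, 7 to 9 in SG G1-ILCs over AL 7R- ILC1s, 4 to 6 over LPL ILC1s, 9 to 10 for the mean of the digested groups and 3 to 5 for liver minus marrow. Signs turned only for values that had not passed the test. Klf13 in SG G1-ILCs over LPL ILC1s was 0.07 without a filter and -0.21 to 0.12 with 1 sample left out. With 1 sample left out, Klf4 (-2.18 to 0.07) and Klf10 (-0.25 to 0.03) turned in AL 7R- ILC1s over AL NK cells, Klf4 (-1.12 to 0.13) and Klf7 (-0.04 to 0.17) in AL 7R+ ILC1s over AL 7R- ILC1s, Klf3 in AL 7R- ILC1s over FL G1-ILCs (-0.08 to 0.32), Klf4 in AL NK cells over BM NK cells (-0.92 to 2.23) and Klf7 in SG G1-ILCs over AL 7R- ILC1s (-0.05 to 0.45). The cause was not tested. Replicate numbers did not pair the samples (mean correlation of same-numbered deviations -0.0112, 2 of 25 libraries closest to their own number), and with the replicate block the calls of Klf12 in AL 7R- ILC1s over FL G1-ILCs (-0.88, adjusted p = 0.0769) and BM iILC1s over BM NK cells (-1.09, 0.065), and of Klf7 in AL 7R+ ILC1s (-0.74, 0.0762) and AL 7R- ILC1s (-0.74, 0.0501) over AL NK cells and in the mean of the digested groups (0.36, 0.0505), were lost. Over all genes AL NK cells over BM NK cells gave 222 higher and 143 lower, against 354 and 268 with DESeq2, 337 and 320 from only these groups, 287 lower without a filter and 222 lower from the 6 groups not digested. SG G1-ILCs over LPL ILC1s gave 2642 higher, against 1741 from only these groups. SG G1-ILCs and AL NK cells, with 2 libraries each, rest on a spread estimated over the 8 groups.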
